A study of Mus musculus with 13 samples.

Results

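The CCAAT/enhancer-binding proteins (C/EBPs) are basic leucine zipper transcription factors, and the 5 genes described here are Cebpa, Cebpb, Cebpd, Cebpe and Cebpg. They were chosen by gene symbol, as named family members, from the 49315 genes counted in mouse midbrain. Of the 5 genes, 4 reached at least 10 counts in at least 3 libraries and were tested. Cebpe did not, and its counts are given below.

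C/EBP proteins bind DNA as dimers, through a basic region held together by a leucine zipper, and members of the family pair with one another. C/EBPδ and C/EBPβ are produced after interleukin-6, interleukin-1 or endotoxin and act on acute-phase and cytokine genes, in glia of the brain as well as in liver and macrophages. C/EBPα drives differentiation of fat, liver and myeloid cells, C/EBPε acts late in granulocyte maturation, and C/EBPγ lacks a strong activation domain and serves mainly as a dimer partner.

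Male mice of 8 to 12 weeks on a C57BL/6J background were compared by genotype and by treatment, to ask how Ripk3 in astrocytes shapes inflammatory transcription in the midbrain after MPTP. All mice carried Ripk3fl/fl, the floxed gene of a kinase of inflammatory signaling and necroptosis. Cre+ mice also carried Aldh1l1Cre+, a tamoxifen-inducible recombinase driven by the astrocyte gene Aldh1l1, while Cre- mice were littermates without it. Tamoxifen (60 mg/kg) is listed here for the mice of every group, but the paper's methods state it only for animals with the recombinase. If Cre- mice did not receive it, effects of tamoxifen and of genotype cannot be told apart. Mice received 5 daily doses of saline or of 20 mg/kg MPTP, a toxin of dopaminergic neurons, and the midbrain was taken 3 days after the last dose. Each library held 1 mouse, with 4 mice in Cre+ MPTP and 3 in each of the Cre- MPTP, Cre+ Saline and Cre- Saline groups. Because whole midbrain was sequenced, a lower level of a transcript can reflect fewer cells of a type or less RNA per cell, and these cannot be told apart.

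Libraries held 11489150 to 29397278 counts, with a median of 24907639. Ripk3 itself had 4 to 40 counts per library, too few to check the genotype of single mice in whole tissue. Cre- MPTP replicate 1 stood apart from the other 12 libraries: it had the lowest total, 21101 genes detected against 25432 to 27186, 1.12% of counts from mitochondrial genes against 3.55% to 6.06%, and a mean GC content of 52.9% over its counts against 49.4% to 50.3%. Results that rest on this library are therefore given with it and without it. Cre+ MPTP replicate 4 had 5486 CPM of summed muscle markers, against at most 123.0 in the other libraries, and its C/EBP levels lay within the range of its group. Summed pituitary markers were at 605, 20.8 and 445 CPM in Cre+ Saline replicates 1, 2 and 3, against at most 81.9 CPM in the other groups. Choroid plexus markers summed to 64.9 CPM in Cre+ MPTP replicate 1, against at most 13.2 CPM in the other libraries. The part of these tissues in the C/EBP levels was not tested. Levels are in CPM, counts scaled to a common library total with TMM factors, and per kilobase of exon where genes are compared with each other.

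Cebpa and Cebpg lie on chromosome 7 of GRCm38, on opposite strands, and their 5′ ends are 62720 bases apart. Cebpa (ENSMUSG00000034957) spans 35119293 to 35121928 on the plus strand as 1 exon, and Cebpg (ENSMUSG00000056216) spans 35046422 to 35056573 on the minus strand with 3 exons. Cebpb (ENSMUSG00000056501) is a single exon at 167688915 to 167690418 on chromosome 2, plus strand. Cebpd (ENSMUSG00000071637) lies at 15887286 to 15891031 on chromosome 16, plus strand, as 1 merged exon, and Cebpe (ENSMUSG00000052435) at 54710363 to 54712174 on chromosome 14, minus strand, with 2 exons. The exons of Cebpb are 67.2% G and C and those of Cebpa 62.6%, against 51.6% in Cebpd and 43.3% in Cebpg.

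The promoters of Cebpa, Cebpb and Cebpg are shown, and these genes differ in the size of their change with MPTP. Those of Cebpd and Cebpe are not shown because the promoter set used here had no entry for them. Each runs from 250 bases before to 27 bases after the start site (RefSeq, GRCm38.p6) and is printed 5′ to 3′ on the strand of the gene. Capitals mark matches, on either strand, to TATAAA, the box bound by TBP. They also mark CCAAT, the box bound by NF-Y, and TGACG, a part of the cAMP response element. The windows are chr7:35119043-35119319 (plus strand) for Cebpa, chr2:167688665-167688941 (plus strand) for Cebpb and chr7:35056540-35056816 (minus strand) for Cebpg.
Cebpa: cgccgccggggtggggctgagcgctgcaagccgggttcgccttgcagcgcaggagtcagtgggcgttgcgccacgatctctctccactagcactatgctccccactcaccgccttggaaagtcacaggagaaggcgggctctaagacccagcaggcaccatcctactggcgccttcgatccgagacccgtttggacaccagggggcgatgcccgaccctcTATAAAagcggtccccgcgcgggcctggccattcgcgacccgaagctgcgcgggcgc
Cebpb: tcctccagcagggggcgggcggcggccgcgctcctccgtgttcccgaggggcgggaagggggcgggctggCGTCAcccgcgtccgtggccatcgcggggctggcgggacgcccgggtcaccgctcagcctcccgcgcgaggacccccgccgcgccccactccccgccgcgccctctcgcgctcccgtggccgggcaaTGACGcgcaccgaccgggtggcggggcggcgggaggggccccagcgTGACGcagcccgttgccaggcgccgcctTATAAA
Cebpg: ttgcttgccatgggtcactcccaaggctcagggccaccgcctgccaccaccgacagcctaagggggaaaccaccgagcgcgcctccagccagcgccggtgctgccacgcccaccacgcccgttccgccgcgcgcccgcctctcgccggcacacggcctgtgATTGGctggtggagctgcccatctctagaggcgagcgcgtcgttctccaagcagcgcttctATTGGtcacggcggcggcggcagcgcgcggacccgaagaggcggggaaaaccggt

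Cebpa held 1 TATAAA, starting at position 221 of the window, and Cebpb held 1 at position 272, after the annotated start. TATAAA was present in 13% of 32851 promoters of this length. TGACG occurred 3 times in Cebpb, at positions 71, 198 and 244, and in 19.8% of all promoters, and CCAAT occurred in Cebpg at 162 and 223, and in 35.9% of all promoters. The full element TGACGTCA (1.74% of promoters), the C/EBP motif TTNCNNAA (39.0%), the STAT motif TTCNNNGAA (7.76%) and the NF-κB consensus (0.149%) were not found in these 3 windows on either strand. These matches describe letters only. GC content of the windows was 79.8% for Cebpb, 70.4% for Cebpg and 67.1% for Cebpa.

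Cebpd, the family member known for rapid induction in the acute-phase response, rose with MPTP in Cre- mice and had the largest change of the family. It stood at 5.0, 3.75 and 6.54 CPM in Cre- Saline and at 364, 31.1 and 30.1 CPM in Cre- MPTP. Cre+ Saline libraries had 4.49, 4.84 and 4.80 CPM, and Cre+ MPTP libraries 3.66, 12.1, 3.90 and 4.88 CPM. Every Cre- MPTP library thus lay above all other libraries, and among Cre+ MPTP libraries only replicate 2 lay above the saline range.

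The log2 fold change of Cebpd with MPTP was 4.79 in Cre- mice (SE 0.922, adjusted p = 0.0119 by the quasi-likelihood test of edgeR, with p-values adjusted over 19360 genes by Benjamini-Hochberg) and 0.37 in Cre+ mice (SE 0.774, adjusted p = 1.0). After MPTP, Cebpd was lower in Cre+ than in Cre- mice by a log2 fold change of -4.53 (SE 0.809, adjusted p = 0.0182, edgeR), while under saline the genotypes differed by -0.11 (SE 0.822, adjusted p = 1.0). Without Cre- MPTP replicate 1 the response in Cre- mice was 2.59 (SE 0.397, adjusted p = 0.00108) and the genotype difference after MPTP was -2.34 (SE 0.362, adjusted p = 0.00325), so both calls held at a smaller size. The call in Cre- mice was lost without Cre- Saline replicate 1, 2 or 3 (adjusted p = 0.0737, 0.0796 and 0.0563 by edgeR), with log2 fold changes of 4.57 to 4.98. The call between genotypes was lost without Cre+ MPTP replicate 1, 3 or 4 (adjusted p = 0.0734, 0.0744 and 0.0641), with values of -4.41 to -4.32.

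Exons of Cebpd share 559 bases, 14.9% of their length, with Spidr on the opposite strand, and the strand setting of the counting is not given in the sources used here. Spidr had 16 to 169 counts per library and Cebpd 88 to 3354. In CPM, Spidr was at 1.73 in Cre- MPTP replicate 1, the lowest of the 13 libraries, and at 5.74 and 5.58 in replicates 2 and 3, the highest, against 2.19 to 4.14 in the other groups. The part of the shared bases in the level of Cebpd was not tested.

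Cebpb, the second member known for induction by cytokines, also had its highest mean in Cre- MPTP, where its libraries were further apart. Its levels were 2.54, 2.89 and 3.91 CPM in Cre- Saline and 124, 7.84 and 4.98 CPM in Cre- MPTP. Cre+ mice had 1.97, 4.27 and 4.45 CPM after saline and 1.48, 9.90, 1.82 and 3.13 CPM after MPTP. All 3 Cre- MPTP libraries lay above Cre- Saline, but Cre+ MPTP replicate 2 exceeded Cre- MPTP replicates 2 and 3.

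Cebpb did not pass the test in any comparison with all 13 libraries. Its log2 fold change with MPTP was 3.86 in Cre- mice (SE 1.12, adjusted p = 0.104, edgeR) and 0.17 in Cre+ mice (SE 0.973, adjusted p = 1.0), and the difference between Cre+ and Cre- mice after MPTP was -3.49 (SE 0.984, adjusted p = 0.128). Without Cre- MPTP replicate 1 these values in Cre- mice and between genotypes fell to 1.04 (SE 0.624, adjusted p = 0.334) and -0.68 (adjusted p = 0.78). Without Cre- MPTP replicate 2 or 3, Cebpb passed in Cre- mice at 4.32 (adjusted p = 0.042) and 4.39 (adjusted p = 0.0356), and between genotypes at -3.96 (adjusted p = 0.0344) and -4.02 (adjusted p = 0.0424). Exons of Cebpb share 312 bases, 20.7% of their length, with Tmem189 on the opposite strand, so reads of the shared bases are uncertain. Tmem189 had 906 to 1535 counts per library, more than Cebpb (40 to 1145) in every library but Cre- MPTP replicate 1. In CPM, Tmem189 was at 112 in that library, the highest of the 13 libraries. It was at 41.3 and 41.8 CPM in Cre- MPTP replicates 2 and 3, and its means in the other groups were 42.5 to 51.7 CPM. The part of the shared bases in the level of Cebpb was not tested.

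Cebpa, a factor of adipocyte, liver and myeloid differentiation, had all 3 Cre- MPTP libraries above the other 10 as well. Its level was 11.6, 7.42 and 9.71 CPM in Cre- Saline, and 146, 17.6 and 15.9 CPM in Cre- MPTP. The Cre+ libraries stayed between 6.47 and 9.85 CPM whatever the treatment, at 6.47, 8.70 and 9.52 CPM after saline and 7.65, 9.85, 7.81 and 8.81 CPM after MPTP. The lowest Cre- MPTP library thus exceeded the highest library of any other group.

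In Cre- mice Cebpa had a log2 fold change of 2.63 with MPTP that missed the threshold (SE 0.682, adjusted p = 0.0627, edgeR), and it was 0.81 and past it without replicate 1 (SE 0.201, adjusted p = 0.0229). It also passed without Cre- MPTP replicate 2 (3.04, adjusted p = 0.0149) or 3 (3.08, adjusted p = 0.016). In Cre+ mice the change was 0.05 (SE 0.613, adjusted p = 1.0). After MPTP, Cebpa was lower in Cre+ than in Cre- mice by -2.80 (SE 0.619, adjusted p = 0.044), and by -0.98 without Cre- MPTP replicate 1 (SE 0.188, adjusted p = 0.0114). That call was kept when any 1 Cre- MPTP library was left out and lost when any 1 of the other 10 libraries was left out (edgeR, adjusted p = 0.0702 to 0.149), with values of -2.85 to -2.72 in those fits. Exons of Cebpa share 51 bases with Gm45091 on the opposite strand, which had at most 28 counts.

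Cebpg, the dimer partner of the family, varied least. Levels were 35.4, 38.9 and 36.8 CPM in Cre- Saline, 37.1, 31.0 and 35.3 CPM in Cre+ Saline, and 37.0, 40.1, 34.8 and 35.7 CPM in Cre+ MPTP. The Cre- MPTP libraries, at 59.3, 43.6 and 41.7 CPM, lay just above the other 10. The log2 fold changes of 0.38 with MPTP in Cre- mice (SE 0.15, adjusted p = 0.271, edgeR) and -0.38 between Cre+ and Cre- mice after MPTP (SE 0.139, adjusted p = 0.199) did not pass the test. They were 0.21 (adjusted p = 0.197) and -0.21 (adjusted p = 0.324) without Cre- MPTP replicate 1.

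Cebpe, the granulocyte member, was at the limit of detection. It had 2, 0 and 0 counts in Cre- Saline, 1, 0 and 0 in Cre+ Saline, 5, 0 and 2 in Cre- MPTP, and 0 in all 4 Cre+ MPTP libraries. A count of 0 allows up to 3 counts, or 0.111 to 0.169 unscaled CPM in the libraries with 0 counts. This bound covers counting error only. Differences between groups were not detectable at this depth.

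**Figure D1:**
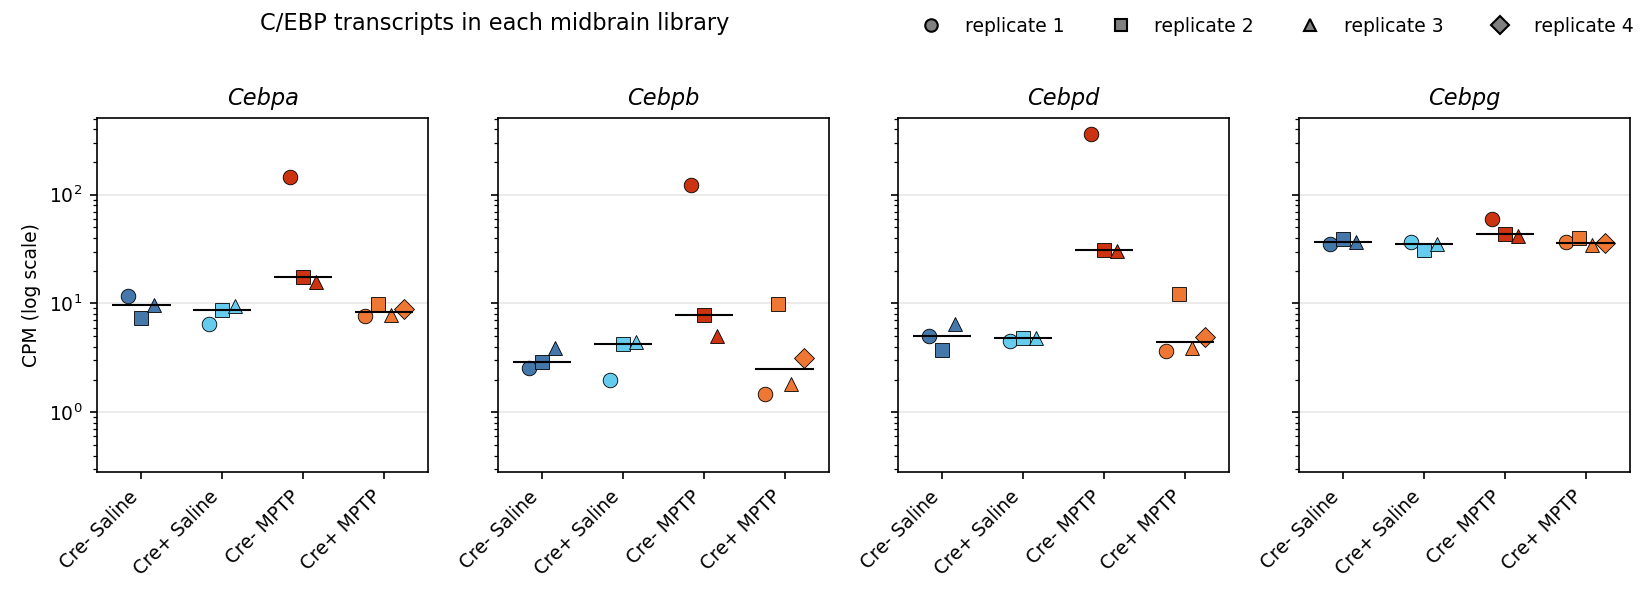
Levels of 4 C/EBP genes in CPM (y axis, log scale) in each of the 13 midbrain libraries, by group (x axis), with symbols for replicates and a line at the group median. Cre- MPTP replicate 1 was the highest library for each gene, and Cebpd in the other Cre- MPTP libraries (31.1 and 30.1 CPM) also lay above every other group.

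By comparison, 1 of the 4 tested members rose with MPTP in Cre- mice, where 2.23% of all genes did, and all 4 lay above Cre- Saline without overlap, where 7.11% of all genes did. Without Cre- MPTP replicate 1, 2 of the 4 rose (Cebpa and Cebpd) against 5.14% of genes. The median log2 fold change of the 4 was 3.24 with and 0.92 without that library, against 0.03 and -0.01 over all genes.

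In Cre+ mice 0 of the 4 members passed with MPTP, and the percentage of all genes that passed was 0.0 in edgeR, with 672 genes (3.47%) at an unadjusted p under 0.05. DESeq2 called 83 genes and limma voom 294 in this comparison, and no fit that gave a p called a member. All 4 members overlapped between Cre+ MPTP and Cre+ Saline, where 9.66% of genes did not overlap in one direction or the other, and the median of the 4 was 0.14 against 0.0.

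Between Cre+ and Cre- mice after MPTP, 2 of the 4 members were lower, against 1.03% of all genes, and 3 of the 4 lay below without overlap, against 5.07%. The same 2 genes, Cebpa and Cebpd, were lower without Cre- MPTP replicate 1, against 1.93% of genes. Under saline, 0 of the 4 differed between genotypes by edgeR, and 0.0% of all genes did (176 genes, 0.909%, at an unadjusted p under 0.05, with 2 genes called by DESeq2 and 3 by limma voom). The members' log2 fold changes under saline ran from -0.22 for Cebpa to 0.19 for Cebpb, and all 4 overlapped, against 11.6% of genes that did not.

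The test of whether the response to MPTP differed between genotypes called none of the 4 by edgeR, where 0.0103% of genes passed (2 of 19360) and 1116 (5.76%) did at an unadjusted p under 0.05. Among the members, Cebpd (-4.42, SE 1.14, adjusted p = 0.269), Cebpa (-2.58, adjusted p = 0.595) and Cebpb (-3.68, adjusted p = 0.74) had an unadjusted p of 0.00207, 0.0134 and 0.0235. For Cebpd the value without Cre- MPTP replicate 1 was -2.22 (SE 0.524, adjusted p = 0.0662), where 1.03% of genes passed, and for Cebpa and Cebpb it was -0.76 (adjusted p = 0.265) and -0.87 (adjusted p = 0.723). DESeq2 called 223 genes and gave no p for these 3, and limma voom, which gives less weight to libraries that vary more, called 689 genes, among them Cebpd (-2.91, adjusted p = 0.000484) and Cebpa (-1.07, adjusted p = 0.0208).

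The levels of Cebpb and Cebpa in Cre- MPTP replicate 1 fell when counts were corrected for GC content, and that of Cebpd did not. Removing the trend of each library's counts on gene GC content brought this library from 124 to 20.9 CPM for Cebpb and from 146 to 40.1 CPM for Cebpa. Cebpd was at 364 CPM before and 380 CPM after, and Cebpg went from 59.3 to 99.8 CPM. With the trend removed, MPTP in Cre- mice gave log2 fold changes of 4.86 for Cebpd (adjusted p = 0.00881, edgeR), 1.51 for Cebpa (adjusted p = 0.00501), 2.04 for Cebpb (adjusted p = 0.119) and 0.69 for Cebpg. Between Cre+ and Cre- mice after MPTP the values were -4.59 (adjusted p = 0.0118) for Cebpd, -1.46 (adjusted p = 0.00796) for Cebpa and -1.34 (adjusted p = 0.236) for Cebpb.

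**Figure D2:**
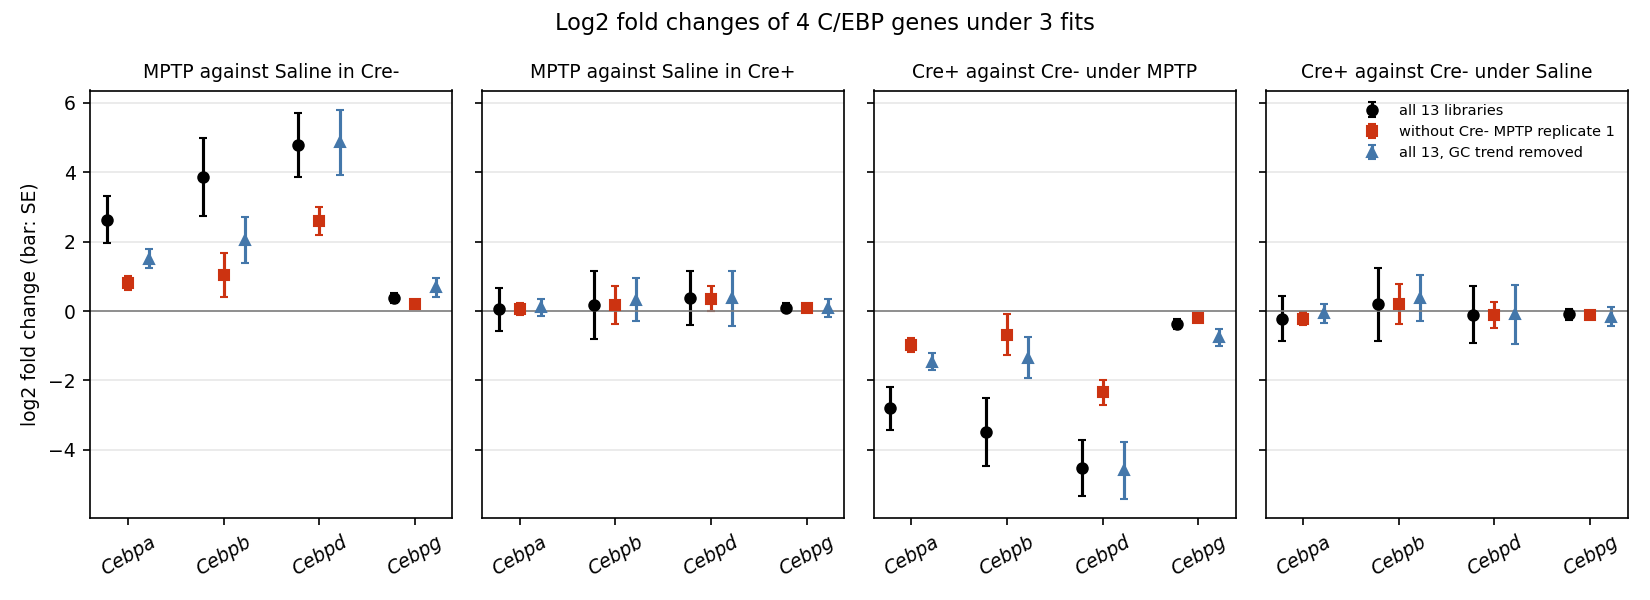
Log2 fold changes (y axis) of 4 C/EBP genes (x axis) in 4 comparisons, with bars of 1 SE, from all 13 libraries (circles), without Cre- MPTP replicate 1 (squares) and with the GC trend removed (triangles). Cebpd keeps its size when the GC trend is removed (4.79 and 4.86 in Cre- mice) while Cebpb falls from 3.86 to 2.04, and all 4 genes lie near 0 in both comparisons that leave out Cre- MPTP mice.

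The order of the family members by mean level differed in Cre- MPTP from that in the other groups. Per kilobase of exon, Cre- Saline libraries held 6.59 ± 0.317 CPM of Cebpg, 3.63 ± 0.792 of Cebpa, 2.07 ± 0.472 of Cebpb and 1.36 ± 0.373 of Cebpd (SD, n = 3), with Cebpb and Cebpd overlapping and the others not. The order of the means was the same in Cre+ Saline (6.13, 3.12, 2.37 and 1.26) and Cre+ MPTP (6.56, 3.24, 2.71 and 1.64). In Cre- MPTP the order was Cebpd, Cebpb, Cebpa and Cebpg, at 37.8 ± 51.3, 30.3 ± 45.2, 22.7 ± 28.3 and 8.57 ± 1.72 CPM per kilobase (SD, n = 3). Without replicate 1 it was Cebpd, Cebpg, Cebpa and Cebpb, at 8.17 ± 0.18, 7.59 ± 0.245, 6.35 ± 0.449 and 4.26 ± 1.34 (SD, n = 2). Cebpd, with the lowest mean of the 4 tested members in every other group, had the highest mean in Cre- MPTP in both cases. Neighbours in the order overlapped in Cre- MPTP with all 3 libraries, and without replicate 1 no neighbours did. In Cre+ Saline, Cebpa and Cebpb overlapped, and in Cre+ MPTP Cebpb, at 0.983 to 6.58 CPM per kilobase, overlapped the other 3, and Cebpa and Cebpd overlapped too.

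The share of the family's summed level per kilobase held by Cebpb and Cebpd together was 21.9%, 23.1% and 29.8% in Cre- Saline and 73.0%, 48.4% and 45.7% in Cre- MPTP. In Cre+ mice it was 21.7%, 31.9% and 30% after saline and 17.1%, 47.5%, 19.7% and 25.9% after MPTP. Cre- MPTP lay above Cre- Saline without overlap, and Cre+ MPTP replicate 2 reached the Cre- MPTP range. The difference between means was 30.7 percentage points in Cre- mice (55.7% ± 15.1 against 24.9% ± 4.25, SD, n = 3, two-sided exact permutation p = 0.1, adjusted p = 0.2 over 4 comparisons), and 0.1 is the smallest p that 3 against 3 allows. It was -0.317 points in Cre+ mice (27.5% ± 13.8, n = 4, against 27.9% ± 5.45, n = 3, exact p = 1.0), -28.1 points between Cre+ and Cre- mice after MPTP (exact p = 0.0857, adjusted p = 0.2) and 2.93 points under saline (exact p = 0.6, adjusted p = 0.8). None of the 4 passed.

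**Figure D3:**
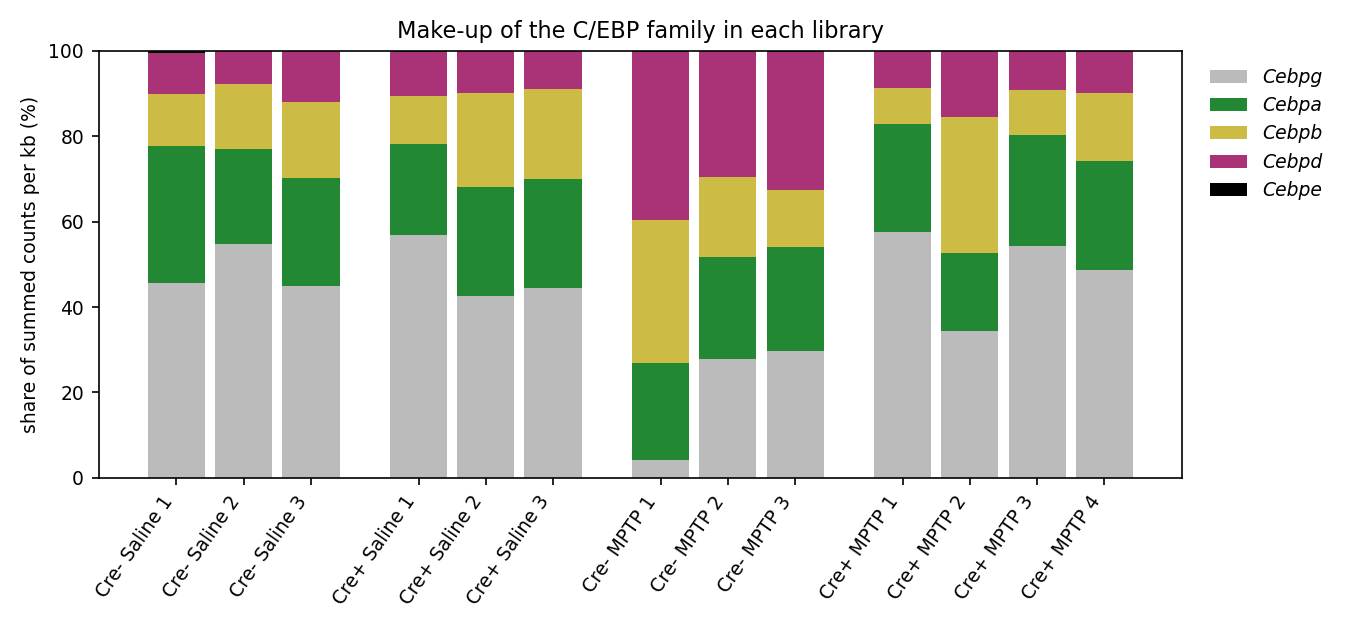
Share of the family's summed counts per kilobase of exon (y axis, %) held by each C/EBP gene in each library (x axis, by group and replicate). Cebpb and Cebpd together held 45.7% to 73.0% in Cre- MPTP and 47.5% in Cre+ MPTP replicate 2, against at most 31.9% in the other libraries.

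Cre+ MPTP replicate 2 was the highest Cre+ MPTP library for all 4 tested members. Of the acute-phase and inflammatory genes described next, 14 of 15 also had their highest Cre+ MPTP level in this library, and 11 of 15 cytokine and signal genes did, against 29.3% of all genes. Without it, the change of Cebpd with MPTP in Cre+ mice was -0.19 and that of Cebpb -0.74, both with an adjusted p of 1.0 (edgeR). The genotype difference of Cebpd after MPTP was then -5.05 (adjusted p = 0.0137).

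A list of 18 genes held cytokines that induce C/EBPs, their receptors, signal transducers, and feedback or glucocorticoid-response genes of the same pathways. Of these, 15 were tested and 9 rose with MPTP in Cre- mice, where 2.23% of all genes did. Their median log2 fold change over the 15 was 1.42 against 0.03 over all genes. Among the 9 were Socs3, the feedback inhibitor of STAT3 signaling (4.64, SE 0.718, adjusted p = 0.00338, edgeR), Stat3, which transmits the interleukin-6 signal (1.17, adjusted p = 0.00185), and Osmr, the oncostatin M receptor (2.63, adjusted p = 0.00521). Il6ra, the interleukin-6 receptor (1.30), Il1r1, the interleukin-1 receptor (1.57), Nfkbia, the NF-κB inhibitor (2.49), and Fkbp5, a glucocorticoid-induced chaperone (2.75), also rose, as did Csf3, the granulocyte growth factor, from 0 to 6 counts per library to 677 to 1198. Tnf, with at most 1 count in Cre- Saline libraries and 1 to 24 in Cre- MPTP, was called too. The receptor genes Il6st (0.16) and Lifr (0.25), the cytokine genes Lif (1.22) and Il1a (1.42), Nr3c1 (-0.52) and the glucocorticoid-induced Tsc22d3 (0.44) did not pass and are named to complete the list.

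The ligand Il6 was under the count filter, with at most 2 counts in any saline library, 1 to 51 in Cre- MPTP and 0 to 6 in Cre+ MPTP. Il1b had 7 to 49 counts in Cre- MPTP against 0 to 6 in Cre- Saline, 0 to 4 in Cre+ Saline and 4 to 7 in Cre+ MPTP, and Osm at most 16 in any library.

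Between Cre+ and Cre- mice after MPTP, 5 of the 15 were lower, against 1.03% of all genes, with a median of -0.91 against 0.03. The 5 were Fkbp5 (-2.11, adjusted p = 0.00563, edgeR), Stat3 (-0.86, adjusted p = 0.0147), Nfkbia (-2.41, adjusted p = 0.0154), Socs3 (-3.19, adjusted p = 0.0231) and Il6ra (-0.81, adjusted p = 0.0394). Without Cre- MPTP replicate 1, 11 rose, against 5.14% of all genes, and Nr3c1, the glucocorticoid receptor, fell in Cre- mice (-0.31). In Cre+ against Cre- mice after MPTP, 8 were then lower, against 1.93% of all genes, and Nr3c1 was higher (0.35). None of the list passed with MPTP in Cre+ mice or between genotypes under saline by edgeR, where 0.0% of all genes did. In Cre+ mice the median of the 15 with MPTP was 0.4 against 0.0 over all genes. Of the 15, 6 lay above Cre+ Saline without overlap and 0 below, against 9.66% of all genes in either direction.

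Acute-phase and inflammatory genes known as C/EBP targets were mostly higher after MPTP in Cre- mice. Of 17 listed genes 15 were tested, and 12 rose with MPTP in Cre- mice, against 2.23% of all genes, with a median of 4.4. All 15 lay above Cre- Saline without overlap, against 7.11% of all genes. Saa3, an acute-phase serum amyloid (10.16, SE 1.74, adjusted p = 0.00597, edgeR), and Lcn2, the iron-sequestering lipocalin-2 (9.67, SE 1.09, adjusted p = 0.00085), had the largest changes of the 12, and Cxcl1, a neutrophil chemokine, followed at 8.64. Il1rn, the interleukin-1 receptor antagonist, had 0 counts in all saline libraries and 18 to 84 in Cre- MPTP, with an adjusted p of 0.126 with all 13 libraries and 0.0449 with Cre- MPTP replicate 1 left out (edgeR). Lcn2 ran from 0.159 to 0.986 CPM in Cre- Saline and from 460.0 to 630.0 CPM in Cre- MPTP. The others were Ccl2, Serpina3n, Saa1, Hp, Ptgs2, Ptx3, C3, Cp and Cd14, between 2.86 for Cd14, the endotoxin co-receptor, and 5.63 for Ccl2, a monocyte chemokine. With Cre- MPTP replicate 1 left out, 14 of the 15 rose, against 5.14% of all genes, and Ptx3 was at 1.91 against 3.69 with it. Orm1 and Orm2, under the count filter, had at most 15 and 5 counts.

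In Cre+ mice none of the 15 acute-phase genes passed with MPTP by edgeR, where 0.0% of all genes did. Their median was 1.47 against 0.0 over all genes. Above Cre+ Saline without overlap lay 3 of the 15, Lcn2, Saa3 (5.88) and Serpina3n (1.71), and 0 lay below. Over all genes 9.66% did not overlap in either direction. Lcn2 was at 5.93 (SE 0.933, adjusted p = 0.104), with 15.4 to 153.0 CPM in Cre+ MPTP against 0.61 to 1.22 in Cre+ Saline, and rose without Cre- MPTP replicate 1 (5.91, adjusted p = 0.0318), as 0.161% of all genes did. After MPTP, 8 of the 15 were lower in Cre+ than in Cre- mice, against 1.03% of all genes. Without overlap, 12 lay below, against 5.07%, and the median was -2.64. The 8 called were Hp, haptoglobin (-4.13, adjusted p = 0.0142, edgeR), Cxcl1 (-4.21), Ptx3, a pentraxin (-3.53), Lcn2 (-3.39), Serpina3n, a protease inhibitor of reactive astrocytes (-2.74), C3, the central complement component (-2.13), Cd14 (-2.08) and Cp, ceruloplasmin (-1.74). When Cre- MPTP replicate 1 was left out, 8 were again lower, against 1.93% of all genes. Ptgs2 was then in (-2.67, adjusted p = 0.00663, edgeR) and Ptx3 out (-1.76, adjusted p = 0.0562).

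Myeloid target genes were sparser. Of 10 listed genes 6 were tested, and 3 rose with MPTP in Cre- mice, against 2.23% of all genes, with a median of 3.07 over the 6. The 3 were Spi1, the myeloid transcription factor PU.1 (3.03, adjusted p = 0.0457, edgeR), Cybb, the phagocyte oxidase (3.11, adjusted p = 0.00828), and Mmp8, neutrophil collagenase (at most 2 counts in Cre- Saline, 21 to 224 in Cre- MPTP). With Cre- MPTP replicate 1 left out, 4 of the 6 rose, against 5.14% of all genes, and the median was 2.20. Spi1 was then at 1.21 (adjusted p = 0.032, edgeR) and Cybb at 3.19 (adjusted p = 0.00282). With all 13 libraries, Mmp8 alone of the 6 was lower in Cre+ than in Cre- mice after MPTP (-5.03, SE 1.05, adjusted p = 0.0368, edgeR). Over all genes 1.03% were lower. With Cre- MPTP replicate 1 left out Cybb was lower too (-2.13, adjusted p = 0.0318), where 1.93% of all genes were. Elane and Mpo, which are granule genes of immature granulocytes, had at most 5 and 11 counts in any library.

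Other basic leucine zipper factors and regulators of C/EBP proteins moved less by the median of their list. Of 15 listed genes 14 were tested, and 1 rose with MPTP in Cre- mice, where 2.23% of all genes did. It was Batf, a lymphoid and myeloid AP-1 partner (2.5, SE 0.564, adjusted p = 0.0302, edgeR), at 0.911 to 1.84 CPM against 0.219 to 0.278. The median of the 14 was 0.71, and 8 lay above Cre- Saline without overlap and 1 below, against 7.11% of all genes above. Batf3 was at 3.01 with MPTP in Cre- mice (adjusted p = 0.108, edgeR), with 0.753 to 11.9 CPM against 0.402 to 0.714 in Cre- Saline. Between Cre+ and Cre- mice after MPTP it was at -2.87 (adjusted p = 0.12, edgeR). Trib1, a pseudokinase that directs degradation of C/EBPα, was at 1.00 (adjusted p = 0.0643) and Atf5, a stress-response factor, at 1.26 (adjusted p = 0.0987). In the fit without Cre- MPTP replicate 1, Trib1 (0.55, adjusted p = 0.021), Atf5 (0.48, adjusted p = 0.0181) and Batf (2.31, adjusted p = 0.0243) passed. There 5.14% of all genes rose.

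Ddit3, which encodes the C/EBP relative CHOP of the unfolded protein response and is named here after its values were seen, stayed between 26.1 and 37.7 CPM in all 13 libraries. Atf3, an early stress factor, had 3.86 to 4.92 CPM in Cre+ Saline against 0.586 to 1.61 in Cre- Saline, 1.91 to 2.60 in Cre- MPTP and 0.839 to 1.91 in Cre+ MPTP. Its change with MPTP in Cre+ mice was -1.89 (SE 0.385, adjusted p = 0.247, edgeR). None of the 14 passed between genotypes after MPTP with all 13 libraries, where 1.03% of all genes were lower. Atf5 (-0.54) and Trib1 (-0.53) passed without Cre- MPTP replicate 1, where 1.93% were.

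**Figure D4:**
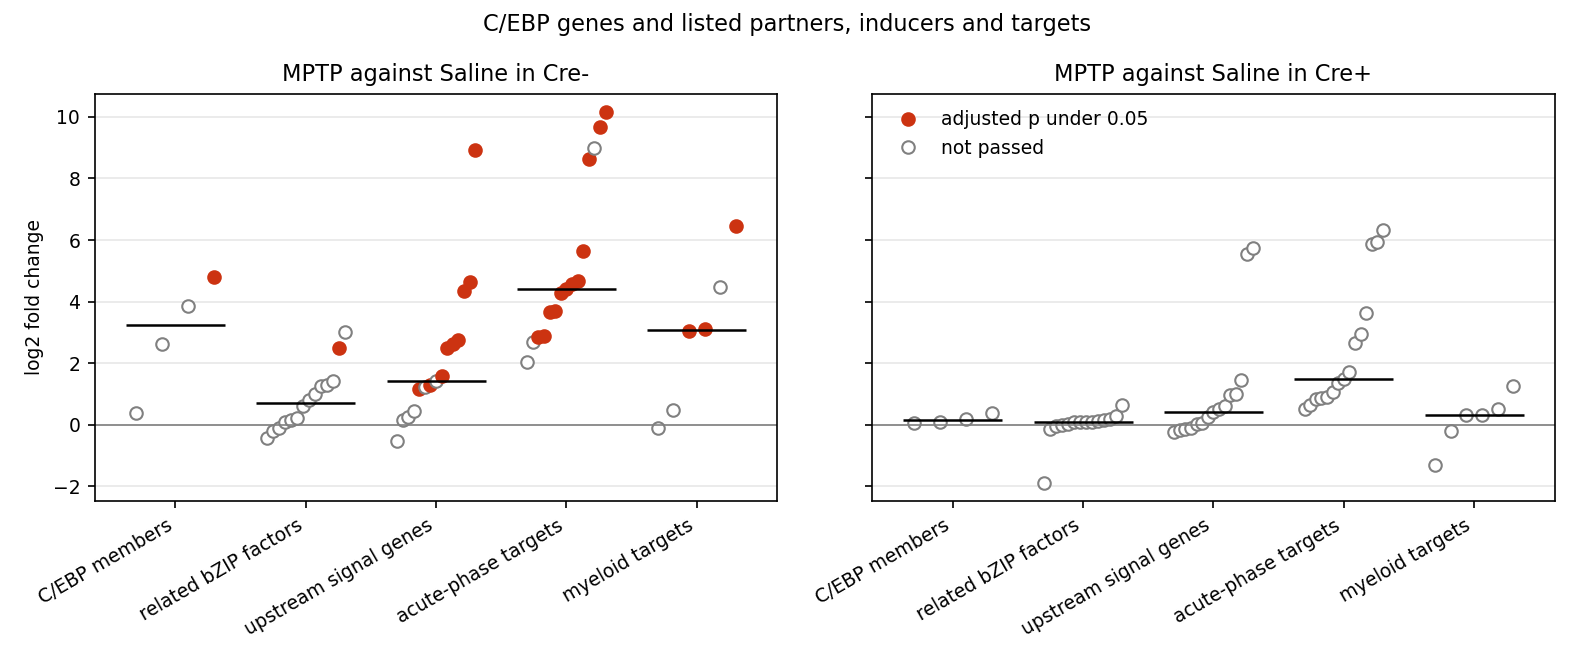
Log2 fold changes (y axis) with MPTP in Cre- mice and in Cre+ mice of the tested genes of the C/EBP family and of 4 lists (x axis), 1 point per gene, filled where the adjusted p is under 0.05, with a line at each median. In Cre- mice 1 of 4 C/EBP genes, 9 of 15 upstream genes and 12 of 15 acute-phase genes passed, where 2.23% of all genes rose. In Cre+ mice none did, and 0.0% of all genes passed.

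Markers of several cell types also differed between the groups. The summed level of 10 neutrophil markers was 15.1 to 76.6 CPM in Cre- MPTP against 3.74 to 8.95 CPM in the other 10 libraries. Of the 6 tested, 4 rose with MPTP in Cre- mice, against 2.23% of all genes, among them S100a8 (5.92) and S100a9 (5.38). The median of the 6 was 5.60, or 4.76 with Retnlg and Mmp8 at the bound that their counts in Cre- Saline allow. Retnlg reached the count filter only through Cre- MPTP (14 to 155 counts, against at most 5 in Cre+ Saline). The count of 4 of 6 and the median therefore lean towards a rise. Ly6g, a defining neutrophil surface marker, had at most 3 counts in any library. Cre- MPTP replicate 3 had the highest neutrophil sum (76.6 CPM) and replicate 1, the highest in Cebpd, had 18.7 CPM. Summed astrocyte markers were at 5208 to 5732 CPM in Cre- MPTP against 3679 to 4543 CPM elsewhere, and this followed Gfap, an intermediate filament gene of reactive astrocytes, at 332 ± 36.7 CPM in Cre- Saline and 2012 ± 1022 CPM in Cre- MPTP (SD, n = 3). The median log2 fold change of the 7 astrocyte markers in Cre- mice was -0.26. Gfap (2.60) and Aldh1l1 (0.65) rose, and Gja1 (-0.60), Aqp4 (-0.30), Aldoc (-0.28), Slc1a3 (-0.26) and Slc1a2 (0.16) did not pass. Gfap was lower in Cre+ than in Cre- mice after MPTP (-2.20, adjusted p = 0.00827, edgeR). Of 8 microglia markers, P2ry12 (-2.79) and Trem2 (-1.59) fell in Cre- mice with MPTP and were higher in Cre+ than in Cre- mice after MPTP (2.12 and 1.27), and the summed level of the 8 ran from 198 to 361 CPM in Cre- MPTP and from 253 to 364 CPM elsewhere. Of 7 monocyte and border macrophage markers, Ly6c2 rose (2.66, adjusted p = 0.00704) and Mrc1 fell (-1.34, adjusted p = 0.028) in Cre- mice with MPTP, and Mrc1 was higher in Cre+ than in Cre- mice after MPTP (1.70, adjusted p = 0.0154). Their summed level was 6.94 to 15.3 CPM in Cre- MPTP and 11.5 to 22.9 CPM elsewhere. Dcn, 1 of 5 fibroblast and meningeal markers, rose in Cre- mice (1.52, adjusted p = 0.027). Oligodendrocyte markers summed to 8288 to 10978 CPM in Cre- MPTP and 10080 to 15592 CPM elsewhere. Neuron markers summed to 1829 CPM in Cre- MPTP replicate 1 and to 2677 to 3277 CPM in the other libraries. Endothelial markers were at 409 CPM in that library and at 243 to 347 CPM in the others. The part of these cell types in the C/EBP levels was not tested.

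The genes whose levels followed each member most closely were ranked by Pearson's r of log2 CPM over the 13 libraries, which share the extreme values of Cre- MPTP replicate 1. For Cebpd these were Mt1, a metallothionein (r = 0.987), Smim3 (0.984), Il17ra, the interleukin-17 receptor (0.983), Mxd4 (0.983) and Tspan4 (0.982). By rank, Spearman's rho of these with Cebpd was 0.687 to 0.835, against 0.929 for Cebpa and 0.841 for Cebpb. After group means were removed, with all 13 libraries kept, r was 0.928 to 0.988, and r was 0.943 to 0.977 without Cre- MPTP replicate 1. For Cebpa they were Tsc22d4 (0.992), Fam43a, Chst2, Klf9, a glucocorticoid-responsive factor (0.986), and Gadd45b, a stress-induced gene (0.983), with r of 0.872 to 0.939 without it and 0.964 to 0.984 after group means were removed. Cebpb was followed by Chic2 (0.968), Slc6a8, the creatine transporter (0.955), Pawr, Rps26-ps1 and Gadd45a, and Cebpg by Mcl1, an antiapoptotic BCL-2 relative (0.956), Ltbr (0.956), Rps23-ps1, Hacd2 and Tmem123. For these r was 0.761 to 0.852 and 0.801 to 0.858 without that library, and 0.924 to 0.973 and 0.881 to 0.935 after group means were removed. Within the family, r between Cebpd and Cebpa was 0.954 (0.891 without Cre- MPTP replicate 1), between Cebpd and Cebpb 0.926 (0.737) and between Cebpa and Cebpb 0.931 (0.648).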

How the data were processed

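Total RNA of perfused midbrain was sequenced as stranded total RNA libraries. Reads were trimmed (Trimmomatic 0.36) and aligned to GRCm38 (STAR 2.5.2b) by the authors, who then counted unique reads over exons per gene with featureCounts of Subread 1.5.2, and deposited these counts per gene without normalization. The strand setting of the counting is not given in the sources used here.

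The 49315 Ensembl genes were named with GENCODE M21. Counts were tested with edgeR 4.0.16 in R 4.3.3: genes reaching 10 counts in 3 or more libraries (19360), TMM scaling, 1 term per group over all 13 libraries, the quasi-likelihood test, and Benjamini-Hochberg adjustment with calls at an adjusted p under 0.05. CPM use the TMM factors. The share of Cebpb and Cebpd was compared with exact permutation tests over samples. Alternatives were DESeq2 1.42.0, limma 3.58.1 voom with quality weights, other filters and size factors, fits on 2 groups, a replicate block, removal of a GC trend, and each library left out in turn. Fits were tested on simulated data. Each replicate is 1 mouse.

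The C/EBP genes and the gene lists were chosen with earlier results of these data known, so list counts are descriptions. Named genes were all members, called genes of the lists, up to 4 list genes with the smallest p in a comparison, and the 5 genes most like each member. Promoters of Cebpa, Cebpb and Cebpg come from RefSeq. Mitochondrial share, GC content and marker sums were computed per library from the deposited counts. DESeq2 without its filter on outlying counts was added after seeing the data.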

Additional observations from a re-analysis of the deposited data

Results flagged for a closer look

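Cebpd in Cre+ MPTP replicate 2, at 12.1 CPM, stood apart from the other 3 Cre+ MPTP libraries, which had 3.66, 3.90 and 4.88 CPM. Its gap to the nearest of them was 0.855 of the range of the group, above Dixon's critical value for 4 samples at 95%, which chance exceeds in about 1 in 20 groups.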

How the results depend on the processing

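Of the 4 tested members, 1 passed with MPTP in Cre- mice and 2 between Cre+ and Cre- mice after MPTP. In Cre- mice the count was 0 with edgeR on the 2 groups, 2 with limma voom, 3 without a count filter, 2 with the GC trend removed, 2 when Cre- MPTP replicate 1 was dropped along with Cre+ MPTP replicate 4, and 0 to 3 with 1 library left out. Between genotypes after MPTP it was 0 with edgeR on the 2 groups and 0 to 3 with 1 library left out. For the difference in response it was 0, and 2 with limma voom. DESeq2 gave no p for Cebpa, Cebpb and Cebpd, for which Cre- MPTP replicate 1 had the largest Cook's distance. Without that filter, chosen after seeing the data, DESeq2 called 3 members in Cre- mice, 3 between genotypes after MPTP, and 1 for the difference in response (Cebpd, -4.49, adjusted p = 0.00456). The labels do not say whether replicate numbers pair the mice. Same-number libraries had r over 0.1 in 3 of 18 pairs (-0.179 to 0.184), which cannot decide it with 3 or 4 mice per group. A replicate block gave 0 calls in Cre- mice and 0 between genotypes, and with the GC trend removed as well 2 and 0. Over all genes it moved the calls from 616 to 428 and from 299 to 0. Beside single libraries left out, calls over all genes ran from 110 (edgeR on the 2 groups) to 2624 (limma voom) in Cre- mice, 0 to 1224 between genotypes after MPTP, 0 to 320 in Cre+ mice, 0 to 19 under saline and 0 to 689 for the difference in response. The exact permutation test of the family share was not run within replicate numbers.

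Some values changed direction in other fits, and none of these was called. With MPTP in Cre+ mice, limma voom gave -0.02 for Cebpa, -0.61 for Cebpb and -0.04 for Cebpd. Without Cre+ Saline replicate 1 Cebpa was -0.11 and Cebpb -0.13, and without Cre+ MPTP replicate 2 they were -0.03 and -0.74, with Cebpd at -0.19. With 1 library left out, Cebpb ran up to 0.45 and Cebpd up to 0.54. Between genotypes under saline, limma voom gave 0.04 for Cebpa and 0.16 for Cebpd, which was 0.11 without Cre- Saline replicate 3 and as low as -0.29 with another library left out. The change of the Cebpb and Cebpd share in Cre+ mice was 0.765 points on raw counts, and -6.95 to 3.16 points with 1 library left out. The cause of these differences was not tested.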
